A study of Mus musculus with 4 samples.

Results

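Serotonin is made by a small set of neurons and read by a large family of receptors, and both sides of this system were followed gene by gene in the brain of a mouse model of Hunter syndrome (mucopolysaccharidosis type II). The genes were chosen by symbol. They comprised 3 genes that mark serotonin neurons of the raphe nuclei (Tph2, Slc6a4 and Fev) and 7 serotonin receptor genes (Htr1a, Htr1b, Htr2a, Htr2c, Htr3a, Htr5a and Htr7). Of these 10 genes, 9 had a row among the 12700 genes of the deposited table. Fev, a transcription factor of serotonin neurons, had none and was not analysed here.

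The study sequenced poly(A) RNA from 2 brain areas of C57BL/6 mice aged 9 months. One genotype was Ids-ko, in which Ids, the gene for the lysosomal enzyme iduronate 2-sulfatase, is disrupted, and the other was wt littermates. The areas were the cerebral cortex (Cx) and a block of midbrain, diencephalon and hippocampus (M). Every brain gave tissue of both areas, so the Cx and M libraries of a genotype came from the same mice. RNA of several mice was pooled for each library and each condition had 1 library: CxH and MH from Ids-ko mice, CxWT and MWT from wt mice. The variation between animals or between pools therefore could not be measured. The deposited counts held 16380080 to 23475080 reads on genes a library. Except in the fit over 4 libraries, every SE, interval and test below covers counting error in single libraries, so a test compares 2 libraries and not 2 conditions. That fit does not measure the variation between pools either.

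Serotonin neurons lie in the raphe nuclei of the midbrain and hindbrain and send axons to nearly the whole forebrain, while their messenger RNA is found mainly in the cell bodies. Tph2 makes the precursor from tryptophan, Ddc turns it into serotonin, Slc18a2 loads it into vesicles, Slc6a4 takes it up again and the monoamine oxidases break it down. Most receptors act through G proteins: the type 1 and type 5 receptors through Gi, the type 2 receptors through Gq and the type 4, 6 and 7 receptors through Gs, whereas the type 3 receptor is an ion channel. Most receptor messenger RNA lies in target neurons such as cortical pyramidal cells, thalamic and hypothalamic neurons, interneurons and choroid plexus cells, but Htr1a and Htr1b are also autoreceptors of serotonin neurons.

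The disrupted gene and the area markers were read in each library first. Values are given as reads in every 1000000 aligned reads (RPM). Ids was at 135 RPM in CxH, 368 in MH, 354 in CxWT and 155 in MWT. It was therefore lower in Ids-ko than in wt in the Cx libraries and higher in the M libraries, against the labels of the latter. The counts per gene do not show which exons these reads came from. CxH, CxWT, MH and MWT hence stand throughout for the libraries labelled so. The 15 markers of cortical excitatory neurons summed to 2150 RPM in CxH, 2024 in MH, 442 in CxWT and 395 in MWT. The 16 of 21 midbrain and diencephalon markers with a row summed to 48.7, 59.4, 552 and 472 RPM in the same order. No marker of either list was at 0 reads in any library. Both sums separated CxH and MH from CxWT and MWT, and not Cx from M. The study's rule was kept: a gene was called if the likelihood ratio test gave p under 0.05 and the log2 ratio was 0.7 or more in either direction. It called 11 of 15 cortical markers higher (9.46% of all genes) and 16 of 16 midbrain and diencephalon markers lower (11.5%) in CxH vs. CxWT, and in MH vs. MWT 12 of 15 higher (12.3%) and 15 of 16 lower (12.7%). The 12 striatal markers summed to 1278 RPM in CxH, 1092 in MH, 540 in CxWT and 516 in MWT, with 8 called higher and 1 lower in each of these pairs. The sum of the hippocampal markers (8 of 11 with a row) lay between 168 and 232 RPM, but its genes moved both ways. Of the 8, 1 was higher and 2 were lower in CxH vs. CxWT, and in MH vs. MWT 4 were higher and 1 was lower, Calb2, which alone was at 13.7 RPM in CxH, 14.6 in MH, 98.7 in CxWT and 68.5 in MWT. The area markers thus did not follow the area labels, and their part in the differences given below was not tested. Whether the libraries labelled MH and CxWT were exchanged was not tested either. Were they exchanged, the ratios of CxH to CxWT and of MH to MWT would compare areas, and those of CxH to MH and of CxWT to MWT would compare genotypes. Ids would not follow the labels then either, since the M library of Ids-ko mice would be at 354 RPM and that of wt mice at 155 RPM. By Ids level CxH lay with MWT and MH with CxWT, which crosses the split of the area markers. Other ways to relabel the libraries were not tested. Since neither the area markers nor Ids followed the labels, the labels do not establish the genotype or area of a library. The differences below therefore cannot be assigned to genotype or area, and Ids-ko, wt, Cx and M are used in them only as labels. In bulk tissue, fewer cells of a type and less RNA per cell cannot be told apart.

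**Figure D1:**
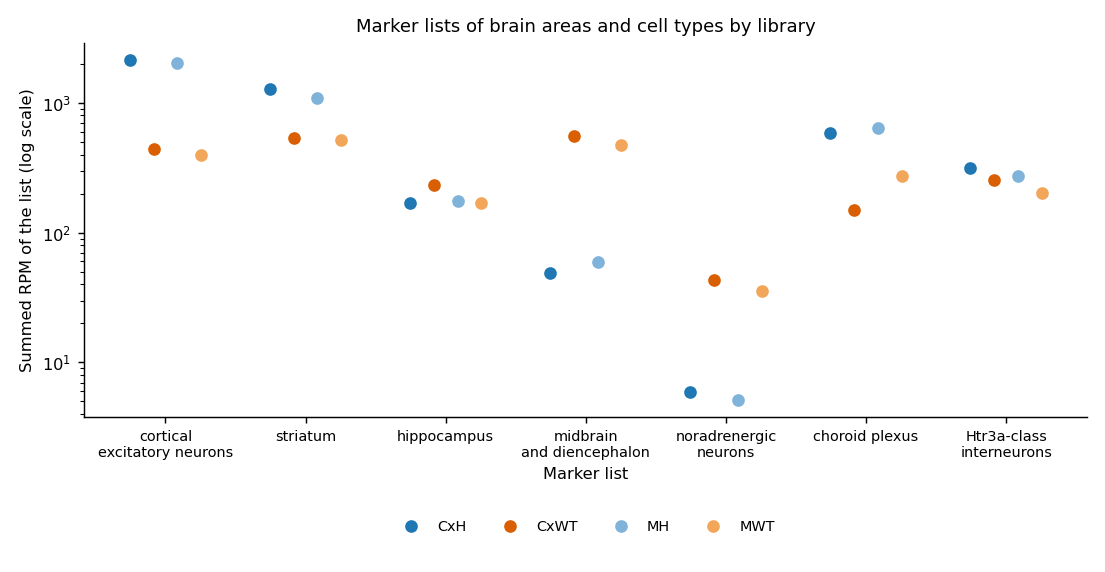
Summed RPM (log scale) of the marker lists with at least 2 genes in the table, 1 point for each library, with mast cells left out. The cortical list stood at 2150 and 2024 RPM in CxH and MH against 442 and 395 RPM in CxWT and MWT, and the midbrain and diencephalon list lay the other way.

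The upstream sequences of 4 genes are shown because their genes carried the largest differences among the members (Tph2 and Slc6a4), made up the largest share of receptor RNA (Htr2c) or differed between the 2 wt libraries (Htr2a). Each is the 250 bases before the RefSeq start (GRCm38.p6 table), 5′ to 3′ on the strand of the gene, and each was found exactly once in the mm9 genome. On mm9 they were chr10:114622079-114622328 (minus strand) for Tph2, chr11:76811849-76812098 (plus strand) for Slc6a4, chrX:143396806-143397055 (plus strand) for Htr2c and chr14:75040431-75040680 (plus strand) for Htr2a. Capitals mark matches, on either strand, to TATAAA (the box that TBP binds), GGAAG (core of ETS factors, the family of Fev), GATAA (core of GATA factors), CCAAT (the box that NF-Y binds) and TGACG (core of cAMP response elements).
Tph2: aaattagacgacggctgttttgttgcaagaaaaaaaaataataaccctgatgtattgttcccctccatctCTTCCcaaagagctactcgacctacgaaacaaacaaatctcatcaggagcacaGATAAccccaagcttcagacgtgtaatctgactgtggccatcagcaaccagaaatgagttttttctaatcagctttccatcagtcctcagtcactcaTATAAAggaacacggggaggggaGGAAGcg
Slc6a4: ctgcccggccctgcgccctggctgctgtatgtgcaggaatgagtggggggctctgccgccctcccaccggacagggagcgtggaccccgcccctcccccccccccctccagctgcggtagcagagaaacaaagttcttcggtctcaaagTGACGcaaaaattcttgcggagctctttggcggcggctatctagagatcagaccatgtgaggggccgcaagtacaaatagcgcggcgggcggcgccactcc
Htr2c: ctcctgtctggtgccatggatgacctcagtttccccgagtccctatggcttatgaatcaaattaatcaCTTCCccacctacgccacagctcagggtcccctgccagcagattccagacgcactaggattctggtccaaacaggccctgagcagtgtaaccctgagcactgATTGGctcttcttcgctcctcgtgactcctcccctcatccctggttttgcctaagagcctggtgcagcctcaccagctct
Htr2a: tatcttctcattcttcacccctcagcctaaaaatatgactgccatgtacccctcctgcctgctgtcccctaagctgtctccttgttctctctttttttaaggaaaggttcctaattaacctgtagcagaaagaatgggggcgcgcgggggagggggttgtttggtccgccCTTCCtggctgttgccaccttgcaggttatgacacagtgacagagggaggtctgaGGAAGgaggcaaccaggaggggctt
Tph2 held TATAAA starting 30 bases before the start, GATAA 127 bases before it and GGAAG 180 and 7 bases before it. Slc6a4 held only TGACG, 101 bases before the start. Htr2c held GGAAG 182 bases and CCAAT 80 bases before the start, and Htr2a held GGAAG 80 and 25 bases before it. No matches overlapped in these 4 windows. Among 27025 promoter windows of the same length, 13.0% held TATAAA, 63.6% GGAAG, 23.0% GATAA, 34.5% CCAAT and 17.9% TGACG. Such matches describe letters and not bound sites.

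Both raphe genes with a row and the receptor genes Htr2c and Htr7 were lower in the libraries labelled Ids-ko than in those labelled wt, in both pairs of the same area label, and Htr3a was higher in both. The area markers split along the same line and Ids went against the labels in the M pair, so these directions belong to the labelled libraries and cannot be assigned to the genotype. In CxH vs. CxWT, 5 of 9 members were called, where the rule called 20.9% of all genes. Of these, 4 were lower (11.5% of all genes) and 1 was higher (9.46%). In MH vs. MWT, 6 of 9 were called beside 25.0% of all genes, with Tph2, Slc6a4, Htr2c and Htr7 lower (12.7% of all genes) and Htr2a and Htr3a higher (12.3%). Htr1a, Htr1b and Htr5a were called in neither. The median log2 ratio of the 7 receptors was 0.17 in Cx and 0.35 in M, where that of all genes was -0.09 and -0.07. With so few members, these shares describe the genes and are no test of the group.

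The comparison of Cx with M gave few calls. In CxH vs. MH, 1 of 9 members was called, Tph2, which was lower, where 3.50% of all genes were called (1.06% lower and 2.43% higher). In CxWT vs. MWT, 1 of 9 was called, Htr2a, which was higher, where 7.54% of all genes were called (5.43% higher and 2.11% lower). Tph2 and Slc6a4, whose cell bodies lie outside the cortex, were thus at 23.1 and 19.2 RPM in the library labelled wt cortex. The 2 pairs that differ in both labels were run because of the Ids levels. In CxH vs. MWT, 6 of 9 members were called beside 30.7% of all genes, 4 of them lower (15.1%) and 2 higher (15.6%). In MH vs. CxWT, 5 of 9 were called beside 15.3% of all genes, 4 of them lower (8.89%) and 1 higher (6.41%). These pairs share libraries with those above, so their calls are not independent of them.

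**Figure D2:**
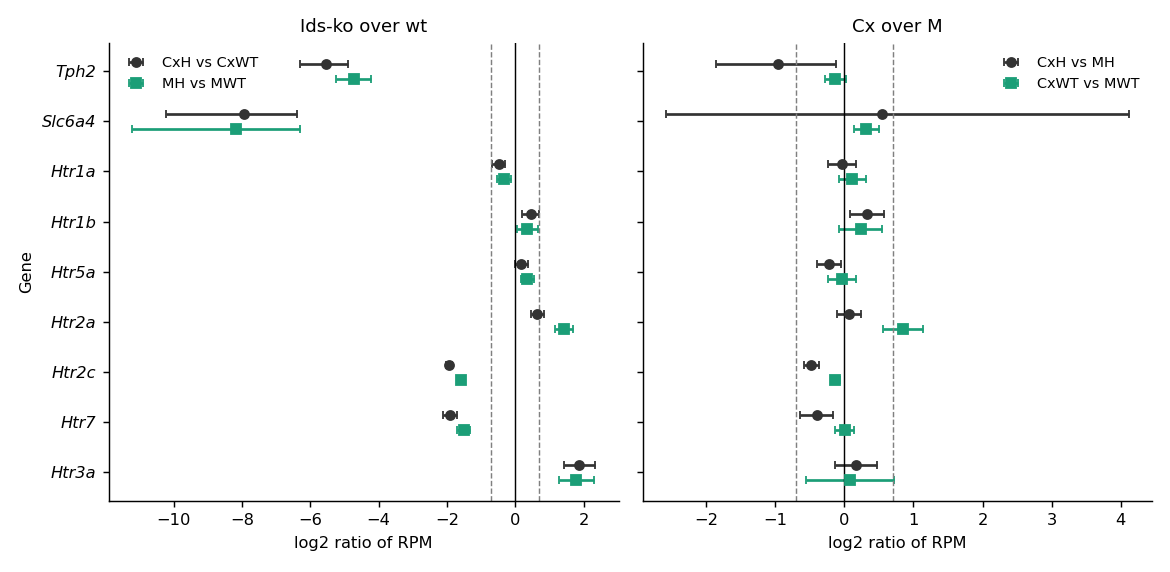
Log2 ratios of RPM of the 9 members, Ids-ko over wt on the left and Cx over M on the right, with 95% intervals for counting error and dashed lines at a log2 ratio of 0.7 in either direction. Tph2, Slc6a4, Htr2c and Htr7 lay below the lower line in both genotype pairs and Htr3a above the upper one. In the area pairs the genes called were Tph2 (CxH vs. MH) and Htr2a (CxWT vs. MWT).

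Tph2 (chr10:114515697-114622078, minus strand, 11 exons in the longest transcript of the mm9 annotation) encodes the neuronal tryptophan hydroxylase, the rate-limiting enzyme of serotonin synthesis in the brain. It had 19 reads in CxH, 36 in MH, 778 in CxWT and 733 in MWT, or 0.493, 0.964, 23.1 and 25.3 RPM. The 2 Ids-ko libraries were both far below the 2 wt libraries, whichever areas were paired. It was 46.9 times lower in CxH than in CxWT (exact 95% counting interval 29.8 to 78.3, log2 ratio -5.55 ± 0.33 SE). In MH it was 26.3 times lower than in MWT (18.8 to 37.8, log2 ratio -4.72 ± 0.25). Between the areas, Tph2 was 1.95 times lower in CxH than in MH (1.09 to 3.60), a call that rests on 19 and 36 reads. It was lost with a minimum of 100 reads in either library, a log2 threshold of 1 or an assumed variation between pools. In CxWT and MWT it differed by a log2 ratio of -0.13 ± 0.07, which was not called and turned to 0.05 with a correction for GC content and length.

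Slc6a4 (chr11:76812105-76845842, plus strand, 15 exons) encodes the serotonin transporter of the plasma membrane, the target of many antidepressants. It had 3 reads in CxH, 2 in MH, 647 in CxWT and 446 in MWT, or 0.0779, 0.0535, 19.2 and 15.4 RPM. The Ids-ko libraries were at or under 3 reads, taken here as the detection limit, while both wt libraries were far above it. The ratio of CxWT to CxH was 247 with a counting interval of 84.1 to 1201, and that of MWT to MH was 288 with an interval of 79.2 to 2384. On the log2 scale the Ids-ko over wt ratios were -7.95 ± 0.83 in Cx and -8.17 ± 1.02 in M. In the wt libraries Slc6a4 was 1.25 times higher in CxWT than in MWT (1.11 to 1.41, log2 ratio 0.32 ± 0.09), below the size required for a call. A transcript of the opposite strand, Gm12343, overlaps Slc6a4, and since the strand of counting is not given in the sources used here, its reads could not be told apart.

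The 2 genes did not keep a fixed ratio to each other. There were 1.20 Tph2 reads for each Slc6a4 read in CxWT (1.08 to 1.34) and 1.64 in MWT (1.46 to 1.85). The same ratio was 6.33 in CxH (1.86 to 33.4) and 18.0 in MH (4.63 to 154), with the width set by the 3 and 2 reads of Slc6a4. The intervals of CxH and MH lay above those of CxWT and MWT, that of CxH by a narrow margin, and those of CxWT and MWT did not overlap each other.

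**Figure D3:**
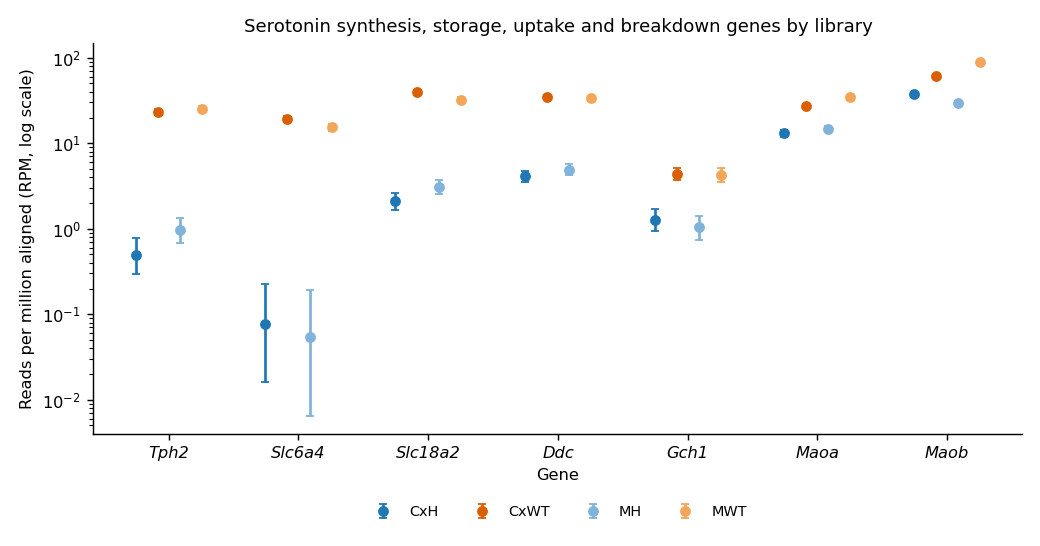
RPM (log scale) of Tph2 and Slc6a4 and of 5 further genes of serotonin handling, 1 point for each library with 95% exact counting intervals. Tph2 and Slc6a4 stood below 1 RPM in CxH and MH and between 15.4 and 25.3 RPM in CxWT and MWT, and the further genes were lower in both Ids-ko libraries by smaller factors.

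The other genes of serotonin synthesis, storage, uptake and breakdown were described from a list of 13, of which 11 had a row and Tph1 and Slc18a1 had none. In CxH vs. CxWT, 4 of 11 were lower (11.5% of all genes) and 1 was higher (9.46%), with a median log2 ratio of -0.61. In MH vs. MWT, 6 were lower (12.7%) and none was higher (12.3%), with a median of -0.94. Slc18a2, the vesicular monoamine transporter, which dopamine and noradrenaline neurons also use, had 81 reads in CxH, 116 in MH, 1321 in CxWT and 936 in MWT (log2 ratios -4.22 in Cx and -3.38 in M). Ddc, the decarboxylase shared with dopamine synthesis, was at 4.10, 4.92, 35.0 and 33.7 RPM in that order (-3.09 and -2.77). Both genes were lower in the Ids-ko libraries, by less than Tph2. Gch1, which starts the synthesis of the cofactor of tryptophan hydroxylase, was at 1.27, 1.04, 4.37 and 4.25 RPM (-1.78 and -2.03). Maoa, which prefers serotonin as a substrate, was at 13.1, 14.6, 27.2 and 34.3 RPM (-1.06 and -1.24). Of the noradrenergic list, 2 of 5 genes had a row, Dbh and Th, which dopamine neurons share, and both were called lower in CxH vs. CxWT (11.5% of all genes) and in MH vs. MWT (12.7%). They summed to 5.87 RPM in CxH, 5.14 in MH, 43.0 in CxWT and 35.3 in MWT. Glra1, the single gene of 11 on the hindbrain list with a row, was at 0.156, 0.214, 7.56 and 5.77 RPM.

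Of 9 further transcription factors that specify or maintain raphe neurons, 7 had a row, and Lmx1b and Foxa2 had none. In CxH vs. CxWT, 4 of 7 were lower (11.5% of all genes) and none was higher (9.46%), with a median log2 ratio of -1.03. In MH vs. MWT, 3 were lower (12.7%) and 1 was higher (12.3%), with a median of -0.04. Between the wt libraries, 3 of the 7 were higher in CxWT, where 5.43% of all genes were. The 3 with the largest fall are also expressed in other midbrain neurons. Gata3 had 1 read in CxH, 4 in MH, 189 in CxWT and 128 in MWT. En1, also a factor of midbrain dopamine neurons, had 1, 0, 273 and 126 reads. En2 had 28, 10, 127 and 105 reads. Each was near the limit of detection or low in CxH and MH and clearly detected in CxWT and MWT, as Tph2 and Slc6a4 were. Like Slc6a4, Gata3 and En1 cannot have met the coverage filter through CxH or MH.

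Among the receptors that act through Gi, no member passed the call in any of the 6 pairs of libraries. Htr1a (chr13:106233773-106238213, plus strand, 1 exon), the autoreceptor of raphe cell bodies that is also postsynaptic in hippocampus and cortex, was at 11.0 RPM in CxH, 11.3 in MH, 15.4 in CxWT and 14.2 in MWT. It was lower in both Ids-ko libraries, by a log2 ratio of -0.48 ± 0.09 in Cx and -0.33 ± 0.10 in M. These differences exceeded the counting error, with ratios of 0.715 (0.627 to 0.814) and 0.794 (0.691 to 0.911), but not the size set for a call. Between CxH and MH its log2 ratio was -0.03 ± 0.10.

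Htr1b (chr9:81524950-81526222, minus strand, 1 exon), the autoreceptor of axon terminals, which is made in striatal and other neurons too, was at 8.16 RPM in CxH, 6.48 in MH, 5.98 in CxWT and 5.08 in MWT. The log2 ratio of Ids-ko to wt reached 0.45 ± 0.13 in Cx and 0.35 ± 0.15 in M. The widest ratio of its 6 pairs was that of CxH over MWT, 0.68 ± 0.14, just short of the threshold of 0.7. The lincRNA D430036J16Rik overlaps Htr1b on the opposite strand, so the reads of both could not be told apart. Htr5a (chr5:28168487-28181626, plus strand, 2 exons), a less studied Gi receptor, was at 14.1, 16.4, 12.5 and 12.8 RPM in CxH, MH, CxWT and MWT. Its Ids-ko over wt ratios were 1.13 in Cx, with an interval that spanned 1 (0.992 to 1.29), and 1.28 in M (1.13 to 1.46). All 6 of its log2 ratios lay between -0.22 and 0.40.

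**Figure D4:**
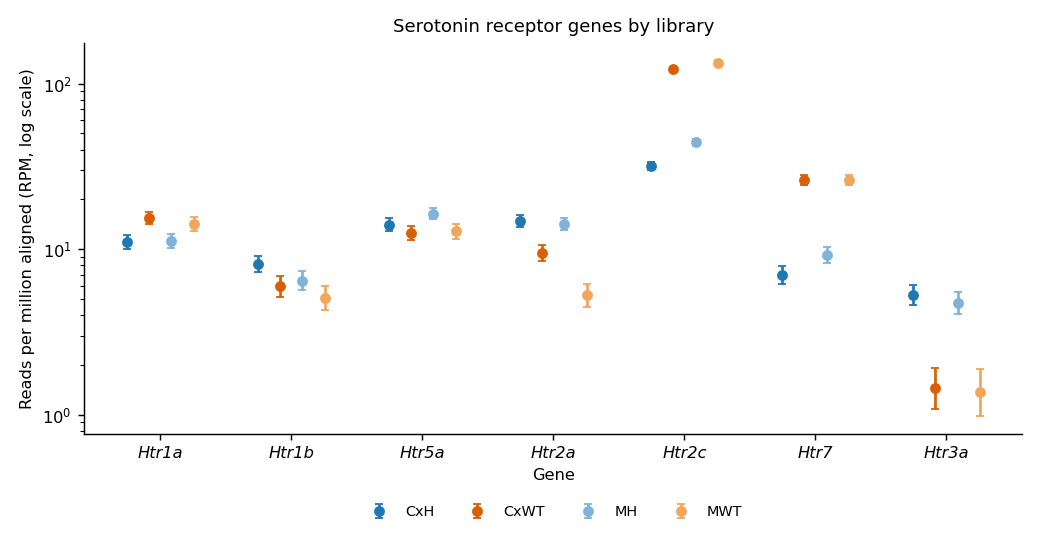
RPM (log scale) of the 7 receptor members, 1 point for each library with 95% exact counting intervals. Htr2c and Htr7 were higher in CxWT and MWT than in CxH and MH, Htr3a lay the other way, and Htr1a, Htr1b and Htr5a stayed between 5.08 and 16.4 RPM.

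The type 2 receptors, which act through Gq, lay on opposite sides of no change. Htr2c (chrX:143397056-143631820, plus strand, 7 exons), the receptor of choroid plexus epithelium and of many hypothalamic, thalamic and midbrain neurons, was at 31.8 RPM in CxH, 44.2 in MH, 122 in CxWT and 134 in MWT. It was 3.85 times lower in CxH than in CxWT (3.61 to 4.10, log2 ratio -1.94 ± 0.05) and 3.03 times lower in MH than in MWT (2.86 to 3.21, log2 ratio -1.60 ± 0.04). The area ratios were smaller, -0.48 ± 0.05 in the Ids-ko libraries and -0.13 ± 0.03 in the wt libraries, and neither was called. The latter turned to 0.06 with the correction for GC content and length. The choroid plexus list (9 of 10 with a row) summed to 586 RPM in CxH, 638 in MH, 149 in CxWT and 272 in MWT. Most of that sum was Ttr, at 537, 583, 113 and 221 RPM, and the list as a whole was divided. In CxH vs. CxWT, 4 of the 9 were higher (9.46% of all genes) and 1 was lower (11.5%), and in MH vs. MWT 3 were higher (12.3%) and 1 was lower (12.7%). The lower one in both was Otx2, at 2.52 RPM in CxH, 3.05 in MH, 9.85 in CxWT and 9.05 in MWT (log2 ratios -1.97 and -1.57), which neurons of the midbrain and thalamus also express. The annotation places several small RNAs within Htr2c on the same strand, among them Mir764, Mir1298 and Mir448, but the sources used here do not say whether the counting took introns.

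Htr2a (chr14:75040647-75106666, plus strand, 3 exons), the receptor of cortical pyramidal neurons at which hallucinogens act, was at 14.9 RPM in CxH, 14.3 in MH, 9.49 in CxWT and 5.29 in MWT. CxH and MH were alike (log2 ratio 0.06 ± 0.09), while CxWT was 1.80 times higher than MWT (1.48 to 2.19). That call was lost at a log2 threshold of 1 or with an assumed variation between pools. In MH it was 2.70 times higher than in MWT (2.25 to 3.25, log2 ratio 1.43 ± 0.13), a call. In CxH it was 1.57 times higher than in CxWT (1.37 to 1.81), and the log2 ratio of 0.65 ± 0.10 fell just short of a call, which it gained with TMM or DESeq2 scaling (log2 ratios 0.75 and 0.74). With 1 library a condition, whether the genotype ratios differed between the areas could not be tested.

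Htr7 (chr19:36033224-36131997, minus strand, 5 exons), a Gs receptor of thalamus, hypothalamus and hippocampus, was at 6.99 RPM in CxH, 9.23 in MH, 26.2 in CxWT and 26.2 in MWT. The wt libraries were alike (log2 ratio 0.00 ± 0.07) and both were well above the Ids-ko libraries. It was 3.75 times lower in CxH than in CxWT (3.27 to 4.32, log2 ratio -1.91 ± 0.10) and 2.83 times lower in MH than in MWT (2.49 to 3.23). Between CxH and MH the log2 ratio was -0.40 ± 0.12.

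Htr3a (chr9:48707319-48719204, minus strand, 9 exons), the subunit that every type 3 channel contains and that marks a class of cortical interneurons, had 205 reads in CxH, 177 in MH, 49 in CxWT and 40 in MWT. These were 5.32, 4.74, 1.46 and 1.38 RPM. Both Ids-ko libraries were above both wt libraries, and neither area pair differed beyond counting error (log2 ratios 0.17 ± 0.15 and 0.08 ± 0.31). Htr3a was 3.65 times higher in CxH than in CxWT (2.66 to 5.10, log2 ratio 1.87 ± 0.23) and 3.43 times higher in MH than in MWT (2.42 to 4.96, log2 ratio 1.78 ± 0.25). Of the 9 markers of Htr3a-class interneurons, 3 were higher and 3 lower in CxH vs. CxWT (9.46% and 11.5% of all genes) and 3 were higher and 2 lower in MH vs. MWT (12.3% and 12.7%). Vip, a peptide of these cells, was at 20.8 RPM in CxH, 27.1 in MH, 6.51 in CxWT and 6.18 in MWT, while Calb2 was at 13.7, 14.6, 98.7 and 68.5 RPM.

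A fit over all 4 libraries with terms for area and genotype was a further reading. It has 1 residual degree of freedom, which holds the interaction of area and genotype. Since both libraries of a genotype came from the same mice, they are not independent samples of it, and the spread behind the p-values of the genotype term holds no variation between mice or pools. These p-values therefore do not extend to other mice. In edgeR's quasi-likelihood test with Benjamini-Hochberg adjustment, the genotype term was called for 6 of 9 members, where 18.7% of all genes were called, 9.90% lower and 8.76% higher. Tph2 (log2 -5.08, adjusted p = 1.67e-04), Slc6a4 (-7.97, 1.38e-04), Htr2c (-1.77, 8.16e-04) and Htr7 (-1.70, 0.00133) were lower in the libraries labelled Ids-ko. Htr2a (1.03, adjusted p = 0.0241) and Htr3a (1.82, 0.00539) were higher. Htr1a (-0.41, adjusted p = 0.158), Htr1b (0.40, 0.252) and Htr5a (0.27, 0.337) did not pass. The area term was called for 0 members and 0 of all genes in edgeR, where 615 genes had an unadjusted p under 0.05, none of them a member. DESeq2 called 1 gene for area. Ids, with ratios of opposite sign in the 2 areas, had a log2 change of -0.07 for genotype in this edgeR fit (adjusted p = 0.942). The term is that of the genotype labels: Ids did not pass it and the cortical and midbrain marker lists split along it. It cannot be assigned to genotype or to area.

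Levels can be set beside each other between receptors when RPM are divided by the transcript length in kilobases (RPKM). Htr2c led in each library: 6.51 RPKM in CxH, 9.04 in MH, 25.0 in CxWT and 27.4 in MWT. Neighbours in the order were compared by the exact 95% counting interval of their ratio per length. In CxH, Htr2c was 1.02 times as high as Htr1b (6.41 RPKM), with an interval of 0.896 to 1.15, so those 2 could not be ordered. The order of the others differed between libraries. Htr7 was next in CxWT and MWT, at 8.31 and 8.29 RPKM, and differed from both neighbours beyond counting error. In CxH it came after Htr1b and Htr2a (5.02 RPKM) and, at 2.21 RPKM, could not be ordered against Htr1a (2.48 RPKM, ratio of Htr1a to Htr7 1.12, 0.959 to 1.31). Nor could the neighbours Htr3a (2.56 RPKM), Htr5a (2.53 RPKM) and Htr1a of CxH. In MH, Htr1b (5.09 RPKM) and Htr2a (4.80 RPKM) had a ratio of 1.06 (0.907 to 1.24). The intervals of Htr5a (2.95 RPKM) to Htr7 (2.93 RPKM), of Htr7 to Htr1a (2.54 RPKM) and of Htr1a to Htr3a (2.28 RPKM) also held 1. Htr3a was 1.84 times as high as Htr1f, the next in MH (1.45 to 2.34). In MWT, Htr5a at 2.30 RPKM was 1.29 times as high as Htr2a at 1.78 RPKM (1.07 to 1.57). Htr3a ranked 4 in CxH and 7 in MH, and was 10 and 11 of 12 in CxWT and MWT. In CxWT the intervals against both its neighbours, Htr1f and Htr6, held 1. In MWT that against Htr1f did (0.746 to 1.76), so these ranks are not exact. The annotated transcript of Htr1b is the shortest of the receptors, 1273 bases, and its RPKM depends on how complete that model is. Per length, Tph2 and Slc6a4 were at 8.81 and 6.88 RPKM in CxWT and at 9.64 and 5.51 RPKM in MWT.

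Over the 12 receptor genes with a row, RPKM summed to 32.5 in CxH, 34.4 in MH, 52.0 in CxWT and 51.7 in MWT. Htr2c held 48.1% of the sum in CxWT and 52.9% in MWT, but 20.0% in CxH and 26.3% in MH. Htr7 held 16.0% in both wt libraries, 6.82% in CxH and 8.51% in MH. By contrast, Htr1b held 19.7% in CxH and 14.8% in MH against 9.04% in CxWT and 7.72% in MWT, and Htr2a held 15.4%, 14.0%, 6.15% and 3.44% in these libraries. Each share depends on the others, so a rise in one is in part the fall of another. Ratios of reads within a library do not depend on its depth. There were 2.13 Htr2c reads for each Htr2a read in CxH (1.93 to 2.36), 3.10 in MH (2.81 to 3.42), 12.9 in CxWT (11.5 to 14.5) and 25.3 in MWT (21.5 to 29.9). Similarly, Htr7 had 1.31 reads for each Htr3a read in CxH (1.09 to 1.58), 1.95 in MH (1.62 to 2.35), 18.0 in CxWT (13.5 to 24.5) and 18.9 in MWT (13.8 to 26.7). None of the CxH and MH intervals overlapped those of CxWT and MWT for either ratio. Each ratio sets a receptor lower in CxH and MH against one higher there, so this follows from the levels above and is no further support. Htr1a had 1.35 reads for each Htr1b read in CxH, 1.74 in MH, 2.58 in CxWT and 2.80 in MWT.

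**Figure D5:**
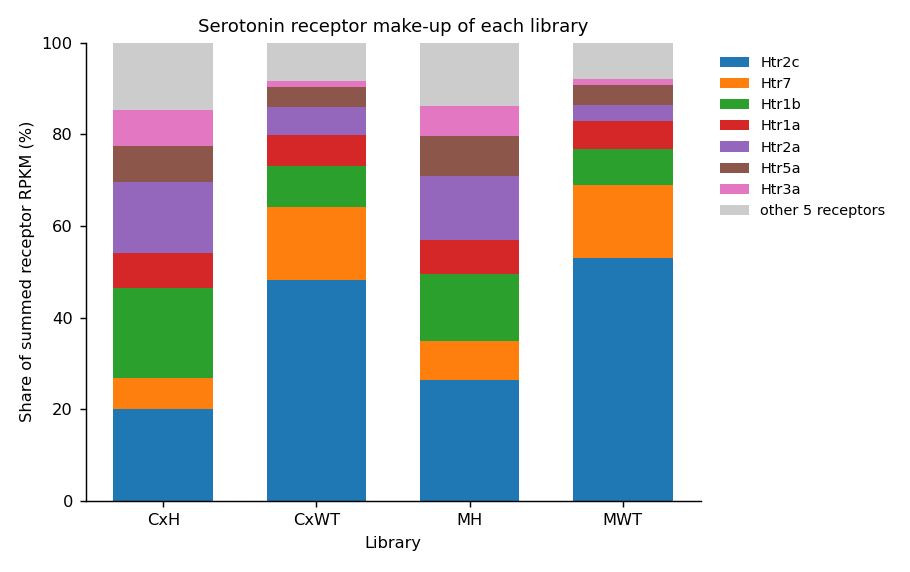
Share of each receptor in the summed RPKM of the 12 receptor genes with a row, in percent, 1 bar for each library. Htr2c and Htr7 together filled most of the CxWT and MWT bars, while the CxH and MH bars were spread over more receptors.

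The other 7 receptor genes were described for completeness. Htr2b and Htr3b had no row. In CxH vs. CxWT, 3 of the other 5 were higher (Htr1d, Htr1f and Htr6) and 2 were lower (Htr4 and Htr5b), where 9.46% and 11.5% of all genes were. In MH vs. MWT, 2 were higher (Htr1f and Htr6) and 1 was lower (Htr5b), beside 12.3% and 12.7% of all genes. Htr6, a Gs receptor of striatal and cortical neurons, had 125 reads in CxH, 96 in MH, 53 in CxWT and 21 in MWT (log2 ratios 1.04 and 1.82). Htr4, a Gs receptor of hippocampus and basal ganglia, had 83, 155, 180 and 136 reads (log2 ratios -1.31 and -0.18), and was the single one of the 5 called between CxH and MH (-0.94), where 1.06% of all genes were called lower. Between CxWT and MWT, Htr6 was the single one called, higher by a log2 ratio of 1.12 on 53 and 21 reads, where 5.43% of all genes were. Htr1f had 116, 116, 60 and 55 reads (log2 ratios 0.76 and 0.71) and Htr1d 114, 98, 56 and 72 reads (0.83 and 0.08) in the same order of libraries.

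Signalling partners of the receptors (G protein subunits, phospholipases, kinases, channels and regulators) were taken from a list of 28, of which 25 had a row. In CxH vs. CxWT, 7 of 25 were higher (9.46% of all genes) and 2 lower (11.5%), with a median log2 ratio of 0.13. In MH vs. MWT, 6 were higher (12.3%) and 3 lower (12.7%), with a median of 0.29. None was called in CxH vs. MH or CxWT vs. MWT, where 3.50% and 7.54% of all genes were. The genes that act after Gq were divided. Prkcb, a protein kinase C, was at 944 RPM in CxH, 888 in MH, 317 in CxWT and 344 in MWT (log2 ratios 1.57 and 1.37). Itpr1, the inositol trisphosphate receptor, was at 517, 476, 181 and 172 RPM (1.52 and 1.47), whereas the phospholipase Plcb4 was at 16.9, 21.6, 52.7 and 44.6 RPM (-1.64 and -1.04). Kcnj5, a subunit of the potassium channels that Gi receptors open, was at 0.727, 1.07, 7.64 and 7.64 RPM (-3.39 and -2.83). The kinase and Itpr1 thus lay with Htr2a and Htr3a, and Plcb4 and Kcnj5 with Htr2c and Htr7, in which libraries were high.

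For each member the 3 genes nearest in pattern were taken, by Euclidean distance of log2(RPM + 0.1) centred on the gene's mean over the 4 libraries, among 12529 genes. Over 4 libraries that fall in 2 levels, many genes lie close, so this is a description. Tph2 lay nearest to the calcitonin receptor gene Calcr (distance 0.08), which had 3 reads in CxH, 9 in MH, 248 in CxWT and 226 in MWT. Slc6a4 lay nearest to Slc6a3, the dopamine transporter (distance 0.36), with 16, 19, 1895 and 1440 reads, and then to Hcrt, a hypothalamic peptide gene, and En1. The added 0.1 RPM is above the CxH values of Calcr and Slc6a4, both 0.0779 RPM. It therefore in part sets the distances of Tph2 and Slc6a4. The 3 genes nearest to Htr2c were Rit2, Htr7 and Gpr149 (distances 0.12, 0.13 and 0.13), and those nearest to Htr7 were Gpr149, Rit2 and Bend7 (0.08 to 0.12). Htr2a lay nearest to Pdlim7, Dagla and Per1 (0.05 to 0.07), and Htr3a to Hpcal4, Sipa1l1 and Actn2 (0.08 to 0.11). The nearest genes of Htr1a, Htr1b and Htr5a were Ppil6, Sema4c and Fam76a (0.02, 0.03 and 0.02).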

How the data were processed

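The authors filtered SOLiD 3 Plus reads by quality and mapped them on mm9 with PASS 2.10 (best hit, 2 mismatches at most, no gap). The deposited counts are whole reads that the authors assigned to a single gene, for genes with over 50% of their length covered. That coverage was not met in every library, since each library had 27 to 35 genes at 0 reads. Gene annotation and strand of counting are not given in the sources used here.

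Symbols were matched by Entrez ID to a RefSeq table (GRCm38, names only) for 12690 of 12700 genes. Positions, lengths and GC content came from GENCODE vM1 on mm9, with a transcript for 96.5% of genes. RPM scale counts by the aligned reads that the study gives for each library, and RPKM divide RPM by the length of the longest transcript. Reads on genes were 56.6% to 61.0% of those aligned, and the 3 reads set as detection limit were 0.0779 to 0.104 RPM. Promoter sequences came from RefSeq (GRCm38.p6) and were matched exactly to mm9. The table held an entry for Fev and the members other than Htr3a.

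All genes entered a likelihood ratio test on Poisson counts in each of 6 pairs of libraries (4 of the study). A call needed p under 0.05 and a log2 ratio of 0.7 or more in either direction. Counts of 4 libraries were also fitted with area and genotype by edgeR 4.0.16 (R 4.3.3, quasi-likelihood, Benjamini-Hochberg adjustment) and DESeq2 1.42.0. Intervals are exact (Clopper-Pearson, 95%) and, like the detection limit, cover counting error only, since molecular identifiers are not described. Alternatives were column totals, TMM, DESeq2 size factors, a minimum of 100 reads, a log2 threshold of 1, Benjamini-Hochberg adjustment, 0.5 added to counts, an assumed biological variation of 0.2 and a GC and length correction. Tests were run on simulated counts of independent libraries, Poisson counts for the likelihood ratio test. The variation between the real pools is unknown, so these runs do not give the error rates here.

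Named genes are the members, Ids, genes of the lists and, for each member, the 3 genes nearest in pattern among those with at least 100 reads over the 4 libraries. Genes that the annotation places over a member were named after its values were seen. From lists of over 8 genes up to 4 examples were taken, those with the largest ratio in CxH vs. CxWT among called genes with at least 100 reads. Members and lists were chosen with earlier results of these data known.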

Additional observations from a re-analysis of the deposited data

Results flagged for a closer look

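Ids, the disrupted gene, changed in opposite directions under the same contrast. Its log2 ratio of Ids-ko to wt was -1.39 in Cx and 1.24 in M, and its log2 ratio of Cx to M was -1.44 in Ids-ko and 1.19 in wt. With 1 library a condition the difference was not tested. None of the 9 members showed such a change of sign with both ratios over 2 SE.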

How the results depend on the processing

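Among the counts of members called, 214 stayed within 1.5 times the value reported and 8 did not. The 214 include counts of 0 that stayed 0, such as raphe genes called higher, and ratios far beyond the threshold. The tally is therefore no measure of robustness. Receptors higher in CxH vs. CxWT became 2 (Htr2a joined Htr3a) under TMM, DESeq2 size factors and the GC and length correction, with Htr2a at 0.75, 0.74 and 0.76. Raphe genes lower in CxH vs. MH became 0 with at least 100 reads, a threshold of 1 or an assumed variation of 0.2. Receptors higher in CxWT vs. MWT became 0 under the last 2. Htr1b in CxH vs. MWT gained a call under TMM (0.73) and DESeq2 size factors (0.72). The cause was not tested. Among log2 ratios of single genes, 519 kept their sign and their side of the threshold, and 9 changed sign, none of them a call. With the GC and length correction these were Htr1a in CxH vs. MH (0.0122), Tph2 (0.0482), Htr2c (0.0597) and Htr5a (0.0342) in CxWT vs. MWT and Ids in CxH vs. MWT (0.34). With column totals they were Htr3a (-0.0144) and Htr7 (-0.0883) in CxWT vs. MWT, and Htr7 was at -0.046 there under TMM and -0.0459 under DESeq2 size factors.

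Over all genes, calls were 1201 higher and 1457 lower in CxH vs. CxWT, but 1447 and 1135 under TMM, 1429 and 1150 under DESeq2 size factors and 691 and 710 at a threshold of 1. In MH vs. MWT they were 1556 and 1614, with 869 and 773 at that threshold and 1007 and 1283 with the GC and length correction. In CxH vs. MH they were 309 and 135, with 257 and 183 under column totals, 223 and 89 with at least 100 reads, 192 and 121 with the correction, 109 and 34 at a threshold of 1 and 151 and 40 with assumed variation. In CxWT vs. MWT they were 690 and 268, with 480 and 390 under column totals, 194 and 101 at a threshold of 1, 359 and 128 with assumed variation and 242 and 174 with the GC and length correction. In CxH vs. MWT they were 1980 and 1915, with 1609 and 2504 under column totals, 1107 and 854 at a threshold of 1 and 980 and 1059 with the correction. In MH vs. CxWT they were 814 and 1129, with 1013 and 855 under TMM, 1016 and 852 under DESeq2 size factors and 497 and 567 at a threshold of 1. The median log2 ratio of all genes moved by over 0.1 in MH vs. CxWT (from -0.11 to 0.00 under TMM) and in CxH vs. MWT (from -0.04 to -0.15 under column totals).

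The genotype term was called for the same 6 members under TMM, the filter on low counts and DESeq2. With 1 library a condition there were no replicate numbers to use as a block and no replicate to leave out. The fit of area and genotype is itself the paired comparison of areas, since both areas came from the same mice, and it called 0 members for area. Depth limits Slc6a4 and Tph2 in CxH and MH, where 2 to 36 reads set wide intervals. Genotype, area make-up and pool cannot be told apart within a pair of libraries.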

Other observations

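The lists of mast cells and of the pineal gland, which hold serotonin outside the raphe, were hardly covered. For mast cells 2 of 6 genes had a row, Kit and Hdc, and summed to 37.1 RPM in CxH, 41.6 in MH, 34.0 in CxWT and 28.2 in MWT. Of them Hdc, the enzyme of histamine synthesis, was at 2.49 RPM in CxH, 2.30 in MH, 8.36 in CxWT and 6.32 in MWT. Hdc was called lower in CxH vs. CxWT and MH vs. MWT (11.5% and 12.7% of all genes). Kit, a receptor that neurons also express, lay the other way, at 34.6 RPM in CxH, 39.3 in MH, 25.6 in CxWT and 21.9 in MWT, and was called higher in MH vs. MWT alone of these pairs (12.3% of all genes, log2 ratios 0.44 in CxH vs. CxWT and 0.85 in MH vs. MWT). With 2 of 6 genes that lay opposite ways, the list does not show whether mast cells differed. For the pineal gland 0 of 5 genes had a row, Tph1 among them.

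Slc18a2 had 5.06 reads for each read of the dopamine transporter gene Slc6a3 in CxH (2.94 to 9.27), 0.697 in CxWT (0.649 to 0.748), 6.11 in MH (3.74 to 10.5) and 0.650 in MWT (0.598 to 0.706). Against Tph2, Slc18a2 had 4.26 reads for each read in CxH (2.56 to 7.44), 1.70 in CxWT (1.55 to 1.86), 3.22 in MH (2.20 to 4.82) and 1.28 in MWT (1.16 to 1.41). Both ratios were higher in CxH and MH than in CxWT and MWT, with intervals that did not overlap between these pairs of libraries.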
